A study of Mus musculus with 9 samples.

Results

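Fgl2 and Ccdc146 are 2 mouse genes that share a stretch of chromosome 5, Fgl2 lying inside Ccdc146 on the other strand. They were chosen by symbol because both stood among the strongest falls from acute to chronic MEK-inhibited libraries in an earlier reading of these data, and they are 2 of 37022 genes with a row. Together they hold 6 of the 118482 transcript rows, 1 for Fgl2 and 5 for Ccdc146. Nascent RNA of mouse CD8 T cells was sequenced in 9 libraries, 3 from acute stimulation (Acute), 3 from chronic stimulation (Chronic) and 3 from chronic stimulation with a MEK inhibitor (ChronicMEKi). All groups share the cell type and a labelling for 30 minutes with 0.2 mM 5-ethynyl uridine, a uridine analogue taken up by RNA in the making. The strain, the age, the stimulus, its duration and the inhibitor are not given in the sources used here, and the actinomycin D control is not analysed here. Nothing says that the 3 libraries of a group came from separate animals or cultures, so p-values measure the spread between libraries, which may be technical.

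Fgl2 encodes fibrinogen-like protein 2, which occurs as a secreted protein and as a protein of the cell surface. The secreted form binds the inhibitory Fc receptor FcγRIIB and dampens dendritic cells and T cells, and regulatory T cells and CD8 T cells are among its known sources. The surface form is a prothrombinase, which cleaves prothrombin to thrombin without the usual coagulation cascade. Ccdc146 encodes a coiled-coil protein of centrioles and microtubules, best known for its part in building the sperm flagellum. MEK is the kinase that activates ERK in the MAP kinase cascade, which the T cell receptor switches on.

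Fgl2 (ENSMUSG00000039899.5) spans positions 21372642 to 21378374 of chromosome 5 on the plus strand in GRCm38, a length of 5.733 kb with 2 exons. Ccdc146 (ENSMUSG00000064280.14) spans 21292961 to 21424677 on the minus strand. Its longest row, Ccdc146-202, covers 131.717 kb with 19 exons and holds the whole of Fgl2 within intron 2, which runs from 21333103 to 21399616. Ccdc146-201 (21317826 to 21424677, 8 exons) holds Fgl2 in the same intron. The rows Ccdc146-203, Ccdc146-204 and Ccdc146-205 lie farther downstream in Ccdc146, between 21318109 and 21331119, and hold no part of Fgl2. The end of Fgl2 is 46.303 kb from the Ccdc146 start site, and the divergent gene Fam185a starts 281 bases beyond that site.

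The promoter of Fgl2 is shown because the signal near the start site, the pause region, was measured apart from that of the gene body. The bounds of the pause region are not given in the sources used here. The sequence is RefSeq's (GRCm38.p6, chr5:21372423-21372667, plus strand), and capitals mark the motifs found. The table of promoters matched 1 of the 2 genes, Fgl2. Its RefSeq start lies 31 bases after the GENCODE start used above.
Fgl2 promoter: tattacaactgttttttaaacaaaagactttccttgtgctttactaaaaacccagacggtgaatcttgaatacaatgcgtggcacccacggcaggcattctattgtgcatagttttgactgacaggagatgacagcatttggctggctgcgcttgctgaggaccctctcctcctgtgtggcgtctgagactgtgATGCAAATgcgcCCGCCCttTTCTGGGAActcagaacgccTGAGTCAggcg

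Both strands were searched for motifs chosen with this sequence in view, over windows of the same length for all 32534 promoters. Counted from the RefSeq start, the octamer ATGCAAAT begins at -56, a motif that 1.60% of all promoters hold. The GC box GGGCGG begins at -44 on the other strand (32.3% of promoters), and the STAT motif TTCNNNGAA at -36 (6.93%). The AP-1 motif TGANTCA begins at -16 (6.64%). By the GENCODE start (21372642), the last 26 bases of the window lie inside Fgl2, and the AP-1 motif (21372657 to 21372663) is among them. The STAT motif (21372637 to 21372645) spans that start. The octamer, the GC box, the STAT motif and the AP-1 motif do not overlap each other. The letters of TATAAA (12.2%), TATTAAA (3.28%), the core of the interferon-stimulated response element (2.94%), CCAAT (33.4%), CCGGAAGT (2.70%) and CACGTG (5.87%) are not in this window. Matches are descriptions of the letters and not of bound sites.

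The values are the signal deposited by the authors for each transcript, in a table for the gene body and a table for the pause region. Depth in reads is unknown, because the values are multiples of a step of 0.764 to 1.06 per library and a step is not a read. Summed over 1 row per gene, gene-body signal was 48601800 to 52216200 per library. For tests the libraries were scaled to each other, and differences are on the log2(scaled signal + 5) scale, which understates the change of weak genes. The inhibitor was checked with Dusp6, a phosphatase gene induced by ERK. Its deposited gene-body signal was 2237, 1974 and 2043 in chronic and 214, 204 and 167 in MEK-inhibited libraries, and it fell by 3.52 (SE 0.13, limma adjusted p 5.23e-12). Among the CD8 T cell identity genes 14 of 14 were measured, and their summed scaled signal was 105569 to 119257 in acute, 91742 to 99468 in chronic and 93352 to 98028 in MEK-inhibited libraries.

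Fgl2 was highest under acute stimulation, lower under chronic stimulation and lowest with the MEK inhibitor. Its deposited gene-body signal was 1590, 1505 and 1949 in acute libraries 1, 2 and 3. In chronic libraries it was 311, 295 and 278, and in MEK-inhibited libraries 62.7, 42.4 and 66.8. No library of a group overlapped another group. Per kb of gene, the acute mean was 293 ± 41.1 (SD, n = 3), the chronic mean 51.4 ± 2.80 and the MEK-inhibited mean 9.99 ± 2.28. The ratio of the deposited means was 5.71 from acute to chronic, 5.14 from chronic to MEK-inhibited and 29.3 from acute to MEK-inhibited libraries. These ratios are not scaled. On the deposited scale the median log2 difference over all genes tested was -0.48, 0.16 and -0.33 in the same order.

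**Figure D1:**
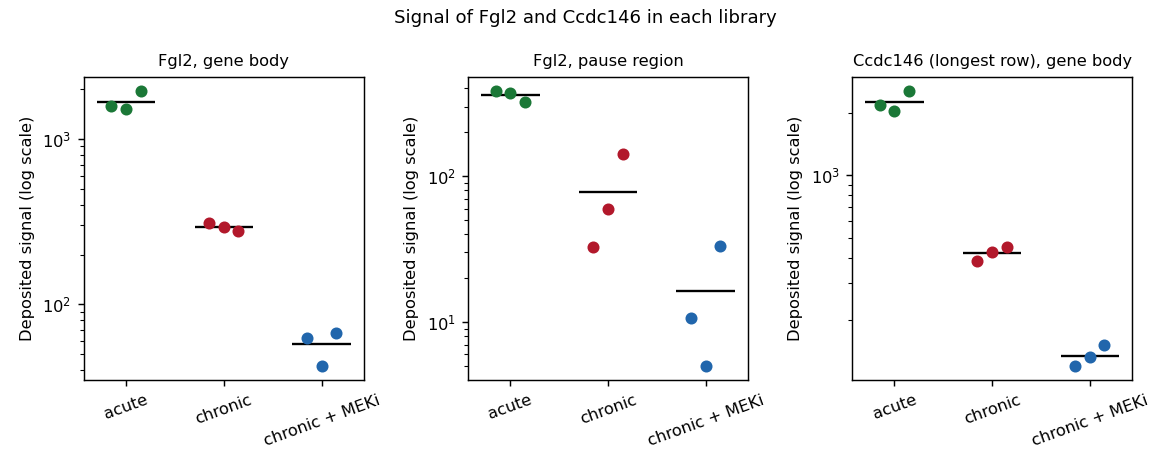
Deposited signal of Fgl2 (gene body and pause region) and of the longest Ccdc146 row (gene body) in each library, on log axes. Points are libraries, side by side within a group, and bars are means of 3. Fgl2 gene-body signal runs from 1949 in the highest acute to 42.4 in the lowest MEK-inhibited library with no overlap between groups, while its pause-region signal overlaps between chronic and MEK-inhibited libraries.

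After scaling, the acute mean of Fgl2 was 1389 ± 148 (SD, n = 3), the chronic mean 339 ± 7.84 and the MEK-inhibited mean 60.7 ± 16.9. From acute to chronic it fell by 2.02 (SE 0.23, limma adjusted p 2.17e-06). From chronic to MEK-inhibited libraries it fell by 2.42 (SE 0.23, limma adjusted p 5.48e-07). The first comparison shares the acute libraries, and the second the MEK-inhibited ones, with the contrast from which the genes were chosen, so neither p is independent of that choice. Across that contrast itself the difference was -4.44 (SE 0.23), given as a description. Of 15942 genes tested in the gene body, 33.9% were called between chronic and acute (15.9% lower), 17.6% between MEK-inhibited and chronic (7.65% lower) and 25.8% between MEK-inhibited and acute libraries (14.4% higher, 11.5% lower). Every chronic library lay below every acute one for 21.9% of genes, every MEK-inhibited library below every chronic one for 14.4%, and every MEK-inhibited library below every acute one for 19.6%. In cells measured in bulk, fewer Fgl2-expressing cells and less Fgl2 RNA per cell cannot be told apart.

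The pause region of Fgl2 followed the same order of group means with more spread. Its deposited signal was 384, 373 and 323 in acute, 32.9, 59.8 and 142 in chronic, and 10.6, 4.99 and 33.4 in MEK-inhibited libraries. Acute libraries stood apart from both other groups. The chronic and MEK-inhibited groups overlapped, since MEK-inhibited library 3, at 33.4, lay above chronic library 1, at 32.9. The means were 360 ± 32.6 (SD, n = 3), 78.2 ± 56.8 and 16.3 ± 15.04. The difference from acute to chronic was -2.28 (SE 0.49) and from chronic to MEK-inhibited libraries -2.12 (SE 0.49). The signal reached the minimum of 50 in all acute libraries and in chronic libraries 2 and 3. It could pass the filter of 3 libraries only through the acute ones, so no test of these differences is given. Of 7678 genes tested in the pause region, 10.7% were called between chronic and acute (5.37% higher, 5.35% lower), 3% between MEK-inhibited and chronic (1.56% higher, 1.43% lower) and 5.95% between MEK-inhibited and acute libraries (3.44% higher, 2.51% lower). In the pause region, chronic libraries lay wholly below acute ones for 11.7% of genes, and MEK-inhibited libraries wholly below chronic ones for 10.5% and wholly below acute ones for 12.1%. The chronic to MEK-inhibited difference of Fgl2 was -1.58 without chronic library 3, -1.94 without MEK-inhibited library 1 and -1.67 without MEK-inhibited library 2. Without a filter on low values Fgl2 was called in neither comparison (limma adjusted p 0.971 and 1). The acute to MEK-inhibited difference was -4.40 (SE 0.49).

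The pause-region signal was also read in percent of the gene-body signal. Both signals are of labelled RNA, which can include finished transcripts, and the bounds of the pause region are not given. Pausing, the balance between polymerase held near the start and polymerase in the gene, was therefore not tested. For Fgl2 the percentage was 24.1, 24.8 and 16.6% in acute, 10.6, 20.3 and 51.0% in chronic, and 16.9, 11.8 and 50% in MEK-inhibited libraries. The third chronic and the third MEK-inhibited library were the high ones, and all groups overlapped. On the log2(scaled signal + 5) scale the change of pause region against gene body was -0.26 (SE 0.51, limma adjusted p 0.893) from acute to chronic and 0.30 (SE 0.51, limma adjusted p 0.986) from chronic to MEK-inhibited libraries. Of 7413 genes tested for a change of pause region against gene body, limma called 0 in either comparison, with 749 and 394 at an unadjusted p under 0.05.

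Ccdc146 followed Fgl2 in the rows that hold Fgl2 and stayed near 0 in the rows that do not. Ccdc146-202 had a deposited gene-body signal of 2189, 2035 and 2553 in acute, 387, 425 and 449 in chronic and 120, 133 and 151 in MEK-inhibited libraries. Ccdc146-201 had 2123, 2003 and 2494, then 370, 394 and 436, then 118, 116 and 128 in the same order. In both rows the groups did not overlap. Ccdc146-203, of 12.797 kb, had 14.7, 15.3 and 13.6 in acute, 5.30, 4.13 and 0 in chronic, and 0.815, 16.6 and 3.61 in MEK-inhibited libraries. Ccdc146-205, which shares most of that span, had 0 to 15.3 over the 9 libraries, and Ccdc146-204, of 3.724 kb, 0 to 6.80. In these 3 rows the MEK-inhibited libraries overlapped both other groups. Every acute library lay above every chronic one in Ccdc146-203 and in Ccdc146-205 (11.6 to 15.3 against 0 to 5.30), at low values. Ccdc146-204 was at 0 in acute library 2 and in all chronic libraries.

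Per kb of span, Fgl2 stood above every Ccdc146 row in all 3 groups. Ccdc146-202 had 17.2 ± 2.02 (SD, n = 3) per kb under acute stimulation, 3.19 ± 0.238 under chronic stimulation and 1.02 ± 0.118 with the inhibitor. The pause region of Ccdc146 was at 0 in all 9 libraries in 4 of its 5 rows, and Ccdc146-204 had 0.831 in MEK-inhibited library 2 alone. A pause region listed at 0 in all libraries was found for 767 of the 15942 genes tested in the gene body (4.81%). No test was made for the Ccdc146 pause region.

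**Figure D2:**
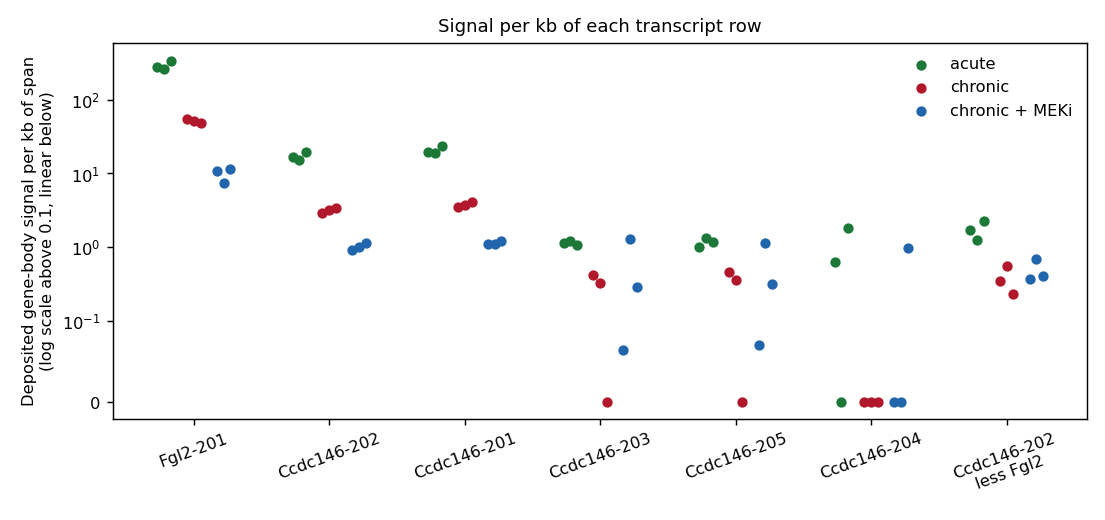
Deposited gene-body signal per kb of span for each transcript row of Fgl2 and Ccdc146, and for Ccdc146-202 less the Fgl2 gene body and pause region over its remaining span. Points are libraries coloured by group, and the axis is logarithmic above 0.1 and linear below. Fgl2 lies at 293 per kb on average in acute libraries, whereas the group means of the Ccdc146 rows without Fgl2 lie between 0 and 1.17.

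Fitted as deposited, Ccdc146-202 fell by 1.94 from acute to chronic (SE 0.19, limma adjusted p 3.09e-07) and differed by -1.74 from chronic to MEK-inhibited libraries (SE 0.19, limma adjusted p 2.82e-06). Its scaled means were 1867 ± 156 (SD, n = 3), 486 ± 68.8 and 142 ± 28.7. The acute to MEK-inhibited difference, from which it was chosen, was -3.68 (SE 0.19). Both genes were called lower in these comparisons, as were 15.9% and 7.65% of all genes tested, and nothing is read from that count, since the genes were chosen for a fall between acute and MEK-inhibited libraries. Nor can their rows be taken as separate measurements, and the following values describe how their signals compare.

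Nested pairs were examined where the inner gene spanned at least 1500 bases, had a mean signal of at least 50 and lay at least 1000 bases from either end of its host. Over 841 pairs in which a gene lay wholly inside a gene of the other strand, the host row had less gene-body signal than the nested gene in 0 pairs, and in 0 of 7569 values when each library was taken alone. For 560 pairs on the same strand the number was also 0. The ratio of host to nested signal was 10.5 at the median of the opposite-strand pairs and 1.003 at the lowest. Whether the counting used strand is not given in the sources used here. Ccdc146 over Fgl2 had a ratio of 1.38, the 41st lowest of 841, and 49 pairs (5.83%) were under 1.5.

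**Figure D3:**
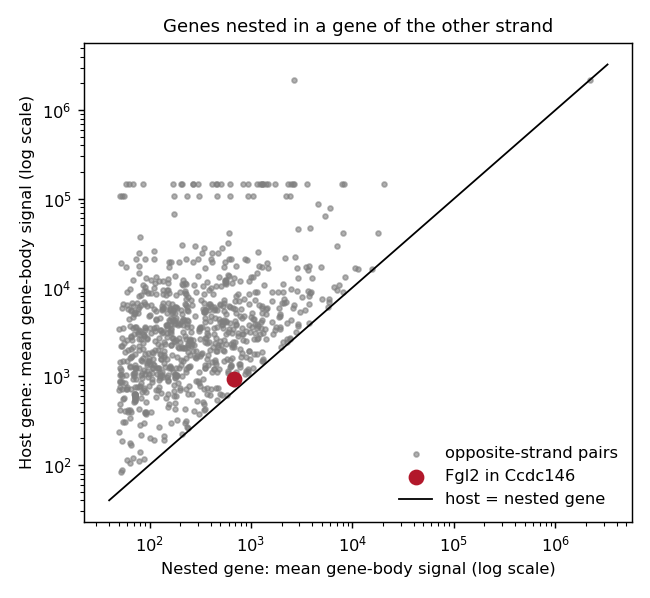
Mean deposited gene-body signal over the 9 libraries of a host gene against that of a gene nested in it on the other strand, for 841 pairs on log axes. The line marks equal signal, below which no pair lies. Fgl2 in Ccdc146 (large point) is close to the line, with 678 for Fgl2 and 938 for Ccdc146.

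In acute and chronic libraries most of the Ccdc146 signal was matched by that of Fgl2. The Fgl2 gene body came to 74.3% ± 1.88 (SD, n = 3) of the Ccdc146-202 signal for acute libraries, 70.6% ± 9.19 in chronic and 42.9% ± 10.3 in MEK-inhibited libraries. Fgl2 gene body and pause region together came to 90.5% ± 1.66, 88.6% ± 5.07 and 54.4% ± 16.5. The drop of the deposited Ccdc146-202 mean from acute to chronic was 1839. The drop of the Fgl2 gene body was equal in size to 75.4% of it, and that of gene body and pause region to 90.7%. From chronic to MEK-inhibited libraries the drop was 286, and these shares were 83.1% and 104.7%. The last share exceeds the whole because the remainder was not lower in MEK-inhibited libraries.

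**Figure D4:**
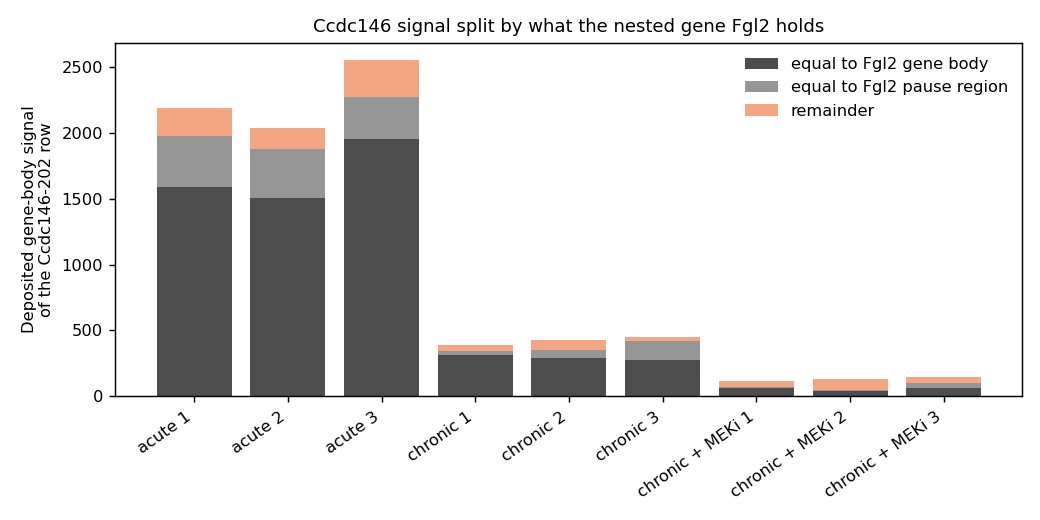
Deposited gene-body signal of the Ccdc146-202 row in each library, stacked as the part equal to the Fgl2 gene body, the part equal to the Fgl2 pause region and the remainder. The remainder is 28.6 to 281 over the 9 libraries, against totals of 120 to 2553.

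What remained of Ccdc146-202 without the Fgl2 gene body and pause region was 215, 157 and 281 in acute, 43.5, 70.1 and 28.6 in chronic, and 46.4, 85.6 and 50.5 in MEK-inhibited libraries. Acute libraries stood above all others, and the chronic and MEK-inhibited ones overlapped. Per kb of the remaining 125.984 kb this was 1.73 ± 0.492 (SD, n = 3), 0.376 ± 0.167 and 0.483 ± 0.171. The remainder fell by 1.68 from acute to chronic (SE 0.42, limma adjusted p 0.00460) and differed by 0.25 from chronic to MEK-inhibited libraries (SE 0.42, limma adjusted p 0.778). With only the Fgl2 gene body taken away the differences were -1.76 (limma adjusted p 0.000511) and -0.75 (adjusted p 0.151). These subtractions were chosen after the data had been seen. Of the 841 opposite-strand hosts, 0 had less signal than gene body and pause region of the nested gene together. A host can have further signal of its own, so that count does not settle whether the Fgl2 pause region was counted in the Ccdc146 row. This was not tested.

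The remainder also holds signal from the ends of Ccdc146. Ccdc146-202 exceeds Ccdc146-201 by 24.865 kb at its downstream end, and that stretch held 32.9 to 65.8 in acute, 12.9 to 30.9 in chronic and 1.63 to 22.6 in MEK-inhibited libraries. A row of Gsap on the other strand, Gsap-208 (21289789 to 21315131), overlaps this stretch and had 69.5 to 139 in acute, 17.5 to 43.3 in chronic and 8.96 to 37.0 in MEK-inhibited libraries. How much of the remainder belongs to Ccdc146 was not tested.

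The reverse overlap was small. If the density of Ccdc146 outside Fgl2 ran on through Fgl2, it would add 9.92 to the Fgl2 gene body in acute libraries, 2.16 in chronic and 2.77 in MEK-inhibited ones. These are 0.590%, 0.732% and 4.83% of the mean Fgl2 signal. With the pause region left in the density, they would be 1.56%, 1.94% and 6.13%.

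Genes around Fgl2 gave calls in both directions. Within 500 kb of either end of Ccdc146 there were 20 genes with a row, and besides Fgl2 and Ccdc146 12 passed the filter on low values. From acute to chronic stimulation 5 of these 12 were called lower and 0 higher (7 and 0 at an unadjusted p under 0.05). Over all genes tested, 15.9% were called lower and 18% higher there. Gsap, which encodes a protein that acts on γ-secretase, fell by 2.20 (SE 0.25, limma adjusted p 1.93e-06), and Ptpn12, which encodes a tyrosine phosphatase, fell by 1.32 (SE 0.15, limma adjusted p 1.96e-06). Fam185a fell by 0.79, Rsbn1l by 0.38 and Dnajc2 by 0.24 (limma adjusted p 1.24e-05, 0.00442 and 0.0471). The call of Dnajc2 was lost when any library but chronic library 3 was left out, at differences of -0.27 to -0.21 (limma adjusted p 0.0549 to 0.134).

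With the inhibitor, Gsap and Ptpn12 went the other way from Fgl2. Ptpn12 rose by 0.64 (SE 0.15, limma adjusted p 0.00597) and Gsap by 0.77 (SE 0.25, limma adjusted p 0.0422). The call of Gsap was lost without any 1 acute library, chronic library 1 or 3, or MEK-inhibited library 1 or 2, at differences of 0.54 to 0.72 (limma adjusted p 0.0580 to 0.168). Of the 12 neighbours 2 were called higher and 1 lower, against 9.93% and 7.65% of all genes tested, and nothing is read from these counts. The 1 called lower was Fam185a, whose start is next to that of Ccdc146, by 0.63 (SE 0.11, limma adjusted p 0.000276). Its deposited signal was 5337, 5921 and 5980 in acute, 2709, 2335 and 2168 in chronic, and 1658, 1640 and 1768 in MEK-inhibited libraries, with no overlap between groups. The other 9 neighbours differed by -0.36 to 0.70 and were not called. In the pause region 8 neighbours were tested. From acute to chronic libraries 3 of the 8 were called lower there, against 5.35% of all genes tested in the pause region. Ptpn12 differed by -2.15 (limma adjusted p 0.000952), Gsap by -2.32 and Fam185a by -1.92. Gsap reached the minimum of 50 in the acute libraries alone, and Fam185a in these and MEK-inhibited library 3. Both could pass the filter only through the acute libraries, so no test is given for them, although they count among the 3. With the inhibitor limma called 0 of 8 (3% of all genes tested in the pause region), with 1 higher and 0 lower at an unadjusted p under 0.05.

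**Figure D5:**
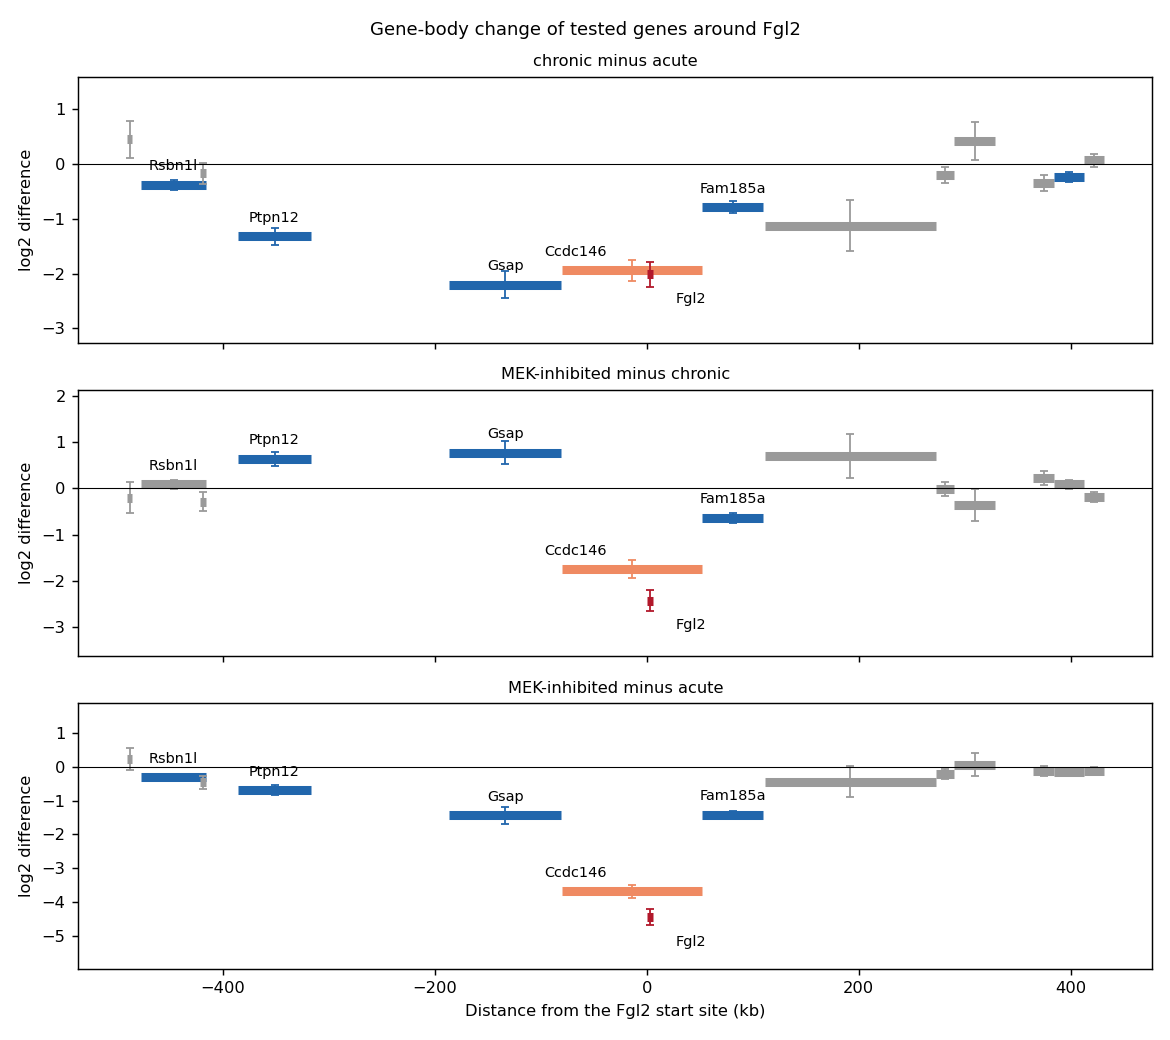
Difference of log2(scaled gene-body signal + 5) for the genes tested around Fgl2, by distance from the Fgl2 start in kb, in 3 comparisons. Bars span the genes, error lines are limma standard errors, Fgl2 is dark red, Ccdc146 orange, other genes blue where the adjusted p is under 0.05 and grey otherwise. From chronic to MEK-inhibited libraries Fgl2 (-2.42), Ccdc146 (-1.74) and Fam185a (-0.63) are lower while Gsap (0.77) and Ptpn12 (0.64) are higher.

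Over the 9 libraries, which share their group structure, Fgl2 and Ccdc146 had a Pearson r of 0.991 on the log2(scaled signal + 5) scale. Among 12339 other named genes that passed the filter, the 5 most like Fgl2 were Timm9 (r 0.988), Hspa4 (0.987), Fam185a (0.983), Rsbn1 (0.983) and Kdm5b (0.982). The 5 most like Ccdc146 were Cd69 (0.990), Hspa4 (0.989), Fam185a (0.987), Gtpbp4 (0.982) and Slc24a3 (0.980). Likeness here is of shape and not of size. Cd69, an early activation marker of T cells, differed by -1.28 in each step and Kdm5b by -0.65 and -0.72. Timm9 differed by -0.26 and -0.36. Slc24a3, which encodes a sodium-calcium exchanger, differed by -2.22 and -1.22. These genes were picked for the pattern, so no test is given for them.

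The family and the pathway of Fgl2 were read through lists made with earlier results of these data known. Over all genes tested, the median difference was -0.02 from acute to chronic and 0.04 from chronic to MEK-inhibited libraries. Scaled to library totals, the median gene moved by -0.49 and 0.11 relative to the scaling used, with 1085 genes called higher and 6860 lower in the first comparison and 1768 and 739 in the second. Called shares over all genes were 18% higher and 15.9% lower in the first comparison, and 9.93% higher and 7.65% lower in the second. Of the genes named below, Angpt1, Angptl2, Fcgr3, Ifng, Junb, Pdcd1lg2, Bbs1, Cep63, Nin, Ift57, Ift80, Ctla4 and Ikzf2 overlap another annotated gene. Their values are uncertain for the same reason as those of Ccdc146. The same holds for Gsap, Ptpn12, Rsbn1l, Timm9, Rsbn1, Gtpbp4 and Slc24a3 above.

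Among fibrinogen-domain proteins, the family of Fgl2, 12 of 22 genes passed the filter, Fgl2 among them. Between acute and chronic stimulation the calls were 2 higher and 2 lower (0 and 5 with scaling to totals), and the median was -0.61. Besides Fgl2, Angptl4, which encodes an inhibitor of lipoprotein lipase, differed by 0.71 (limma adjusted p 0.0132), which was not called without acute library 1 (0.64, adjusted p 0.0591) or under library totals (0.22, adjusted p 0.429). Angpt1, an angiopoietin gene that overlaps Gm17473, differed by -1.61 (limma adjusted p 0.0360) and was not called without acute library 1 or 3 or chronic library 1 or 2 (-1.63 to -1.40, adjusted p 0.0839 to 0.120). Angptl2, which overlaps Ralgps1, differed by 1.04 (limma adjusted p 0.0467) and lost its call without any library but acute library 1 or chronic library 3, and under library totals (0.57, adjusted p 0.242). It was 0.60 (adjusted p 0.256) without chronic library 1. With the inhibitor 0 were higher (1 at an unadjusted p under 0.05) and 2 lower, Fgl2 and Angptl4 (-1.54, SE 0.21, limma adjusted p 3.03e-05), and the median was 0.23. Fgl1, which encodes a ligand of the inhibitory receptor LAG-3, had 0 to 25.5 in every library and did not pass the filter. Fga, Fgb and Fgg, the fibrinogen chains, were at 0 to 6.19.

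Of 15 genes for receptors of Fgl2 and its coagulation partners, 8 passed the filter. Fcgr2b, which encodes FcγRIIB, had 0 to 26.3 in the 9 libraries and did not pass. F2, which encodes the prothrombin that Fgl2 cleaves, had 8.31 to 22.1 and did not pass. Between acute and chronic the calls were 1 higher and 2 lower (1 and 4 with scaling to totals), with a median of -0.23. F2rl1, a receptor of the thrombin receptor family, fell by 2.41 (SE 0.32, limma adjusted p 8.84e-06) and F2r, the thrombin receptor itself, by 0.57 (SE 0.11, limma adjusted p 0.000371). Fcgr3, an activating Fc receptor related in sequence to Fcgr2b, was higher by 1.79 (SE 0.44, limma adjusted p 0.0102), and not called without acute library 3 (1.58, adjusted p 0.0544). Between chronic and MEK-inhibited libraries 2 were higher and 0 lower (3 and 1 at an unadjusted p under 0.05), with a median of 0.10. F2rl1 differed by 1.16 (limma adjusted p 0.0146) and F2r by 0.37 (adjusted p 0.0202). The call of F2rl1 was lost without chronic library 1 or 3 or MEK-inhibited library 1 (0.90 to 1.03, adjusted p 0.0504 to 0.0980). That of F2r was lost without acute library 3, chronic library 1 or 2, or MEK-inhibited library 1 or 3 (0.30 to 0.36, adjusted p 0.0626 to 0.110).

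Of 18 genes described as inducers or regulators of Fgl2, 15 passed. In chronic against acute libraries 3 were called higher and 9 lower, with a median of -0.35, and from chronic to MEK-inhibited libraries 7 higher and 4 lower, with a median of 0.36. Ifng, the interferon that induces Fgl2 in macrophages, rose by 3.69 (SE 0.20, limma adjusted p 9.48e-11) in chronic libraries, in which Fgl2 fell, and fell by 1.22 (SE 0.20, adjusted p 0.000195) with the inhibitor. Ifngr2, a chain of its receptor, went the other way at both steps, with differences of -2.76 (limma adjusted p 5.22e-11) and 2.39 (adjusted p 1.13e-09). Fos, which encodes an AP-1 subunit, had a deposited signal of 284, 162 and 277 in acute libraries and 4.07 to 26.6 in the other 6. It reached the minimum of 50 in the acute libraries alone, so it could pass the filter only by differing, and no test is given for it, although it counts among the genes called lower. Junb, another AP-1 subunit gene, differed by 1.62 (limma adjusted p 1.20e-06) there, but it overlaps Prdx2, and its longest row differed by 0.26 (adjusted p 0.790). Tigit, an inhibitory receptor tied to Fgl2 in regulatory T cells, rose by 1.43 (SE 0.20, limma adjusted p 1.70e-05) from acute to chronic, where Fgl2 fell, and fell by 0.87 (SE 0.20, adjusted p 0.00423) with the inhibitor.

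Other secreted and surface mediators of immune suppression were read as a list that does not hold Fgl2. Of 16 genes 12 passed, and from acute to chronic 8 were called higher and 2 lower, with a median of 0.92. Il10, an anti-inflammatory cytokine, rose by 3.83 (SE 0.15, limma adjusted p 9.92e-12) and fell by 4.31 (SE 0.15, adjusted p 1.04e-11) with the inhibitor. Lgals3, a galectin, rose by 3.59 (limma adjusted p 1.66e-09). Nt5e, the ectoenzyme CD73 that makes adenosine, fell by 3.75 (limma adjusted p 4.17e-10) as Fgl2 did, and rose by 1.33 (adjusted p 0.000201) with the inhibitor. Lgals9, another galectin, fell by 1.87 (limma adjusted p 2.65e-07) and rose by 1.61 (adjusted p 3.95e-06). With the inhibitor 2 were higher and 5 lower, with a median of -0.28. Pdcd1lg2, which encodes the PD-1 ligand PD-L2, fell by 1.64 (limma adjusted p 1.64e-08).

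Among centriole and cilium genes, the group to which Ccdc146 belongs by function, 37 of 38 passed. Between acute and chronic libraries 15 were called higher and 2 lower, with a median of 0.34. The balance turned with scaling to totals, to 6 higher and 11 lower and a median of -0.15. Kif3a, a kinesin of cilia, rose by 1.44 (SE 0.21, limma adjusted p 3.36e-05) and fell by 1.61 (SE 0.21, adjusted p 2.17e-05) with the inhibitor. Bbs1 differed by 1.68 (limma adjusted p 0.0108), not called without chronic library 1 (1.54, adjusted p 0.0551) or under library totals (1.24, adjusted p 0.0572). Nin, which encodes the centrosome protein ninein, fell by 1.23 (SE 0.09, limma adjusted p 7.62e-09). Cep63 differed by -0.47 (limma adjusted p 0.00872), and by -0.39 without acute library 1 (adjusted p 0.0553). With the inhibitor 8 were higher and 3 lower, with a median of -0.03, which was 0.08 under library totals. Cntrob and Ift80, of centriole and cilium assembly, rose by 1.09 and 1.01 (limma adjusted p 0.000854 and 3.78e-05), and Ift57 fell by 1.16 (adjusted p 0.000215).

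Fgl2 is also made by macrophages, so markers of other cells were read beside it. Of 14 macrophage and monocyte markers 5 passed the filter, and their summed scaled signal over all 14 was 414 to 635 in acute, 361 to 463 in chronic and 211 to 519 in MEK-inhibited libraries. Among the markers that did not pass, Lyz2, Cd14, C1qa, C1qb and C1qc had 0 to 19.1 in every library. Between acute and chronic libraries limma called 0 of the 5 (0 also at an unadjusted p under 0.05), and with the inhibitor 1 was called lower. That gene was Ccr2, at -2.16 (limma adjusted p 0.00580), not called without chronic library 2 (-1.72, adjusted p 0.0548). The part of macrophage RNA in the Fgl2 result was not tested.

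The summed scaled signal of dendritic cell markers was 2778 to 3342 in acute, 6021 to 6648 in chronic and 5266 to 5897 in MEK-inhibited libraries. Of 8 dendritic cell markers 3 passed, and Batf3, which T cells also express, rose by 1.17 from acute to chronic (limma adjusted p 6.94e-08). With the inhibitor limma called 0 of the 3, with 1 lower at an unadjusted p under 0.05. Of 8 B cell markers 5 passed, with sums of 850 to 1023 in acute, 496 to 554 in chronic and 308 to 807 in MEK-inhibited libraries. Cd79a fell by 1.69 (limma adjusted p 0.00225) from acute to chronic, and with the inhibitor limma called 0, with 1 lower at an unadjusted p under 0.05. Of 6 NK cell markers 2 passed, and Klrk1, also of CD8 T cells, differed by 0.61 (limma adjusted p 0.0111) and -1.05 (adjusted p 0.000260). The first of these was not called without acute library 2 or chronic library 3 (adjusted p 0.0509 and 0.0517) or under library totals (0.12, adjusted p 0.643). Ncr1, an NK marker, was at 0 to 7.74.

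Genes of CD8 identity and of CD4 and regulatory T cells moved with the groups too. Of the 14 CD8 identity genes 9 were called lower and 0 higher from acute to chronic (13 lower under library totals), and 4 higher and 2 lower with the inhibitor (4 and 1 under library totals). Cd8a fell by 2.07 (SE 0.13, limma adjusted p 5.65e-10) and rose by 1.58 (SE 0.13, adjusted p 6.14e-08), so its second step ran opposite to that of Fgl2. Cd5, a surface receptor that restrains T cell receptor signalling, fell by 0.57 with the inhibitor (limma adjusted p 0.00332), and was not called on the deposited scale (-0.44, adjusted p 0.0605). Of 6 CD4 and regulatory T cell markers, 3 were higher and 2 lower from acute to chronic (0 and 2 under library totals) and 4 higher and 2 lower with the inhibitor (4 and 0). The medians of this list were 0.33 and 0.75. Ctla4 fell by 1.91 from acute to chronic and rose by 2.02 with the inhibitor (limma adjusted p 2.59e-09 and 3.81e-09). Ikzf2 rose by 1.32 with the inhibitor (limma adjusted p 7.93e-09), while Cd4 was among the 2 lower ones. Cd4 itself had 479 to 599 in acute, 118 to 323 in chronic and 87.5 to 143 in MEK-inhibited libraries. Its difference from acute to chronic was -0.98 (limma adjusted p 0.0174), not called without acute library 1 or chronic library 3 (-0.90 and -0.68, adjusted p 0.0706 and 0.0908). Their part in the Fgl2 result was not tested.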

How the data were processed

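Per the labels' protocols, nascent RNA was labelled, captured and sequenced as paired reads of 100 bases. Per the submitters' processing notes, FastQC 0.12.0, Trim Galore 0.6.10, STAR 2.7.0a, SAMtools 1.19.2, deepTools 0.1.9 and R 4.1.2 were used with mm10. The counting tool and the coordinates of the pause region are not given in the sources used here. The tables deposited by the authors hold signal per transcript. All values up to 500 steps were whole multiples of the step within 0.01, but a step is not a read, so no counting interval is given.

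Rows were matched to GENCODE M21 (117346 with version, 383 without, 753 unmatched). Each gene was represented by its transcript with the highest average over the gene body. A gene was tested where 3 or more libraries reached a signal of 50. Libraries were scaled by a trimmed mean (30% of log ratios and 5% of levels at each end). One limma model (limma 3.58.1, R 4.3.3, trend and robust moderation) of log2(scaled signal + 5) covered all 9 libraries, with p-values adjusted by Benjamini and Hochberg and a threshold of 0.05. The method was tested on simulated data. Python 3.11.15 with pandas 2.3.3 was used to join them.

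Genes and lists were chosen with earlier results of these data known. Named are both genes, neighbours within 500 kb of Ccdc146, Dusp6, the 5 genes most correlated with each, and at most 2 called genes per direction, list and comparison; some of these are not reported here. The lists cover fibrinogen-domain proteins, Fgl2 receptors and coagulation partners, Fgl2 inducers and regulators, immunosuppressive mediators, centriole and cilium genes, and markers of CD8 T cells, macrophages, dendritic cells, B cells, CD4 and regulatory T cells, and NK cells. Alternatives changed the pseudocount, filter, scaling, row, moderation, libraries and replicate block.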

Additional observations from a re-analysis of the deposited data

How the results depend on the processing

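The gene-body differences of Fgl2 and Ccdc146 kept their direction and call under 12 other settings and without each of the 9 libraries. For Fgl2 they ranged from -2.50 to -1.93 (chronic minus acute) and from -2.60 to -2.17 (MEK-inhibited minus chronic). The exceptions are the subtractions chosen after seeing the data, in which Ccdc146 differed by -0.75 or 0.25 between MEK-inhibited and chronic libraries. By construction these remove the Fgl2 signal.

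The pause region of Fgl2 was less settled. Without a filter its differences were -2.29, -2.11 and -4.40 for chronic minus acute, MEK-inhibited minus chronic and MEK-inhibited minus acute (limma adjusted p 0.971 and 1 for the first and second). The number of genes called in the pause region was then 1, 0 and 0, and in the gene body 3291, 1186 and 2077, against 823, 230 and 457 and 5403, 2802 and 4118. Without trend and robust moderation the middle difference was -2.12 (limma adjusted p 0.140), with 110 genes called, and 232 for MEK-inhibited minus acute. Leaving out 1 library gave -2.72 to -1.58 for it. Pause-region counts under library totals were 1768 for chronic minus acute. Without 1 library they were 545 to 750, 109 to 277 and 233 to 512 in the order above. The cause was not tested.

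Residuals of same-numbered libraries correlated at -0.533 to 0.0979 over 9 pairs, with 0 over 0.1. Those of differently numbered libraries correlated at -0.367 to 0.513 over 18 pairs, with 5 over 0.1. These values do not show which libraries, if any, were prepared together. With a replicate block the Fgl2 gene-body differences were -2.02 (limma adjusted p 2.35e-06) and -2.42 (adjusted p 5.79e-07), those of its pause region -2.28 and -2.12, and 5497, 2956 and 4263 genes were called in the gene body. The block ended no gene-body call of Fgl2 or Ccdc146. Of 2302 alternative values for the other named genes, 2088 kept their call, 213 lost it and 1 reversed: Junb, MEK-inhibited minus acute, was -0.15 for its longest row.

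Depth is unknown, so whether a row at 0 was transcribed cannot be read, and fewer reads cannot be told from less signal.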

Other observations

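Several other host genes had hardly more gene-body signal than a gene nested in them on the other strand. Over the mean of 9 libraries the ratio of host to nested signal was 1.003 for Cmss1 and Filip1l, 1.04 for Gm15283 and Hif1a, 1.05 for Oprm1 and Ipcef1, 1.06 for Kcnq1 and Kcnq1ot1, and 1.07 for Ggnbp1 and Bak1. Tnr, a fibrinogen-domain gene of the extracellular matrix, had 9576 in MEK-inhibited library 2, against 87.6 to 449 in the other 8 libraries.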
